A study of Mus musculus with 6 samples.

Results

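The genes described here are 35 genes of endoplasmic reticulum (ER) protein folding and of the unfolded protein response, measured in the whole epididymis of adult WT and Ocln-KO mice. They were picked out of the count table by gene symbol, and the list was drawn up with earlier results of these data known. Of 57127 listed genes, 32046 had a count and 19691 were abundant enough to be tested, and all 35 members were among the latter. Selenos was listed under its older symbol Vimp, which RefSeq gives as its synonym, and the other 34 under their own symbols. By role the set holds 9 chaperones and cochaperones of the ER lumen, 6 lectin chaperones and protein disulfide isomerases, the translocon subunit Sec61b, 8 factors of ER-associated degradation (ERAD), 3 sensors of unfolded proteins, 3 transcription factors and 5 targets or feedback regulators of the PERK-ATF4 branch.

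The mice were adults of the C57BL/6 strain. WT mice carried intact Ocln, and Ocln-KO mice were germline knockouts of occludin, a tight junction protein (genotype Ocln-/-), so that effects within the epididymis and effects that reach it from other organs cannot be told apart. The 3 libraries of each genotype came from total RNA of the whole organ, which holds principal, clear, basal, muscle, stromal and immune cells along its initial segment, caput, corpus and cauda. The sources used here speak both of separate extractions and of pooled RNA, so a library may hold more than 1 mouse, and the p-values measure the spread between libraries.

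Secreted and membrane proteins enter the ER through the Sec61 channel, are bound by chaperones while they fold, gain disulfide bonds and N-glycans, and are extracted to the cytosol for degradation when folding fails. Unfolded proteins in the lumen activate IRE1 (Ern1), which splices the mRNA of Xbp1, PERK (Eif2ak3), which slows translation and favours that of Atf4, and ATF6 (Atf6), which is cleaved into a transcription factor. The resulting factors induce chaperone and ERAD genes and, when stress persists, the proapoptotic factor CHOP (Ddit3). Principal cells of the epididymis secrete large amounts of protein into the lumen, and a well-developed ER is a feature of these cells. Gene-level counts show mRNA amounts and show neither Xbp1 splicing, nor Atf4 translation, nor Atf6 cleavage.

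Some promoters of the set carry elements through which these branches are known to act. Of the 35 members, 31 (all but Manf, Hyou1, Derl1 and Atf6) had an entry among the RefSeq promoters of GRCm38.p6, which run from 250 bases before to 50 bases after a start site. The ER stress element (CCAAT and CCACG with 9 bases between them, searched on both strands) is recognised by ATF6 together with NF-Y. It was found in 9 of the 31 members, or 29.0%, and in 0.137% of all 27025 genes with a promoter entry. The windows below show it for the most abundant chaperones and for the members whose levels are described in detail, read 5′ to 3′ along the gene's own strand with the element in capitals and 10 flanking bases on each side.
Hspa5, chr2:34772015-34772053, plus strand: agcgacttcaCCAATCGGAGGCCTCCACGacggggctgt
Hsp90b1, chr10:86705628-86705666, minus strand: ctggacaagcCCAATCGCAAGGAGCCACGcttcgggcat
Hsp90b1, chr10:86705523-86705561, minus strand: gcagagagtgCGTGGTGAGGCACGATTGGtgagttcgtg
Calr, chr8:84847065-84847103, minus strand: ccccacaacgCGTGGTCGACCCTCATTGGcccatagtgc
Canx, chr11:50325790-50325828, minus strand: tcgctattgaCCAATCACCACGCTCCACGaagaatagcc
Pdia6, chr12:17266481-17266519, plus strand: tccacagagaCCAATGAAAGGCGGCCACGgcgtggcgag
Dnajc3, chr14:118937817-118937855, plus strand: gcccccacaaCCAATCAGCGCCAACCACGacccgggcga
Derl3, chr10:75893232-75893270, plus strand: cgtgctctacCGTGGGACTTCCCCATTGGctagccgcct
In Calr, Derl3 and the second window of Hsp90b1 the element lay on the opposite strand and is therefore printed as its reverse complement. Creld2 and Syvn1 held it too. Among the 9 members the element began between 44 bases (Syvn1) and 212 bases (Hsp90b1) before the start.

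Other elements were rarer in the set. The second ER stress element (ATTGG, 1 base, CCACG) was present in Herpud1 and, after the start, in Dnajb11. These made 6.45% of the 31 members against 0.0444% of all genes with an entry. The C/EBP-ATF composite element (TGATG, 1 base, AA, 1 base), through which ATF4 and CHOP are known to act, was present in Herpud1, Chac1, Asns and, after the start, Trib3. These made 12.9% of the 31 members against 4.5% of all genes with an entry. The XBP1 element (TGACG followed directly by TGG) was in none of the 31 members and in 0.714% of all genes with an entry. All elements were searched on both strands, and no matches in a member overlapped each other. The following windows show the second ER stress element in Herpud1 and the composite element in Chac1 and Asns, again in capitals.
Herpud1, chr8:94386367-94386397, plus strand: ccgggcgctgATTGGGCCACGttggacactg
Chac1, chr2:119351038-119351066, plus strand: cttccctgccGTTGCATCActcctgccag
Asns, chr6:7693214-7693242, minus strand: cccagccacaTGATGAAACttcccgcacg
A match of letters describes the window and does not show that a factor binds there.

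The libraries were deep and of similar size, with 30646424 to 38870780 counts, so that 1 count equalled 0.0267 to 0.0314 CPM, the usual unit of counts relative to library size, used below after TMM scaling. Ocln itself had 85.8, 78.7 and 91.7 CPM in the WT libraries and 15.1, 15.3 and 14.9 CPM in the Ocln-KO libraries, a log2 fold change of -2.50 ± 0.0941 (SE) with an adjusted p of 0.000108 by edgeR's quasi-likelihood test, in the direction of the labels. The first principal component held 51.8% of the variance and placed the third Ocln-KO library, at 62.4, apart from the other 2, at 15.7 and 25.2, and from the WT libraries, at -42.7 to -27.5. The labels give whole epididymis as the tissue, but their extraction text mentions prefrontal cortex. Summed over 10 genes, cortex markers reached 32.7 to 38.6 CPM in the WT libraries and 39.5 to 41.1 in the Ocln-KO libraries (Neurod6 at 0 in every library), while markers of caput principal cells summed to 6020 to 22200 CPM and those of corpus and cauda principal cells to 11100 to 25000 CPM over the 6 libraries.

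No member rose in the Ocln-KO epididymis and 3 members fell. These were Pdia6, a protein disulfide isomerase, Selenos, a membrane selenoprotein of the ERAD complex, and Sesn2, a stress-inducible inhibitor of mTORC1 signalling, with log2 fold changes of -0.48, -0.39 and -0.56. The remaining 32 members, among them the major chaperones, all 3 sensors and Xbp1 and Atf4, did not pass the test. In whole-organ RNA, fewer cells of a type and less RNA per cell cannot be told apart, here and for every result that follows. The 3 genes that fell are 8.57% of the members, beside 5.04% of all genes tested that fell and 8.95% that changed in either direction, so the share of members called lay near that of all genes. None of the members rose, beside 3.91% of all genes, and with DEGs taken at a fold change over 2 or under 0.5 and a false discovery rate under 0.05 no member was a DEG, beside 3.19% of all genes. At an unadjusted p under 0.05, 2 members were higher and 7 lower. With DESeq2 on the same counts, 1 member rose (Ddit3) and 4 fell, Canx with the 3 above.

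Differences were small throughout. By point estimate 23 members were lower and 12 higher in Ocln-KO. Their median log2 fold change was -0.12 (range -0.56 to 0.53) beside 0.01 over all genes tested. The 95% interval of the fold change lay within 2-fold in either direction for 33 of the 35 members, the exceptions being Derl3 and Trib3, and within 1.5-fold for 26. For 14 members the WT and Ocln-KO ranges did not overlap. Of these, 11 were lower in Ocln-KO (31.4%, beside 19.4% of all genes) and 3 were higher (8.57%, beside 16.9%). When libraries were scaled by total counts alone, the median of all genes moved to 0.09 and that of the members to -0.04, with 20 members lower by point estimate, so the members lay 0.13 below the median of all genes under both scalings. Without the first Ocln-KO library, the median of the members was 0.02.

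**Figure D1:**
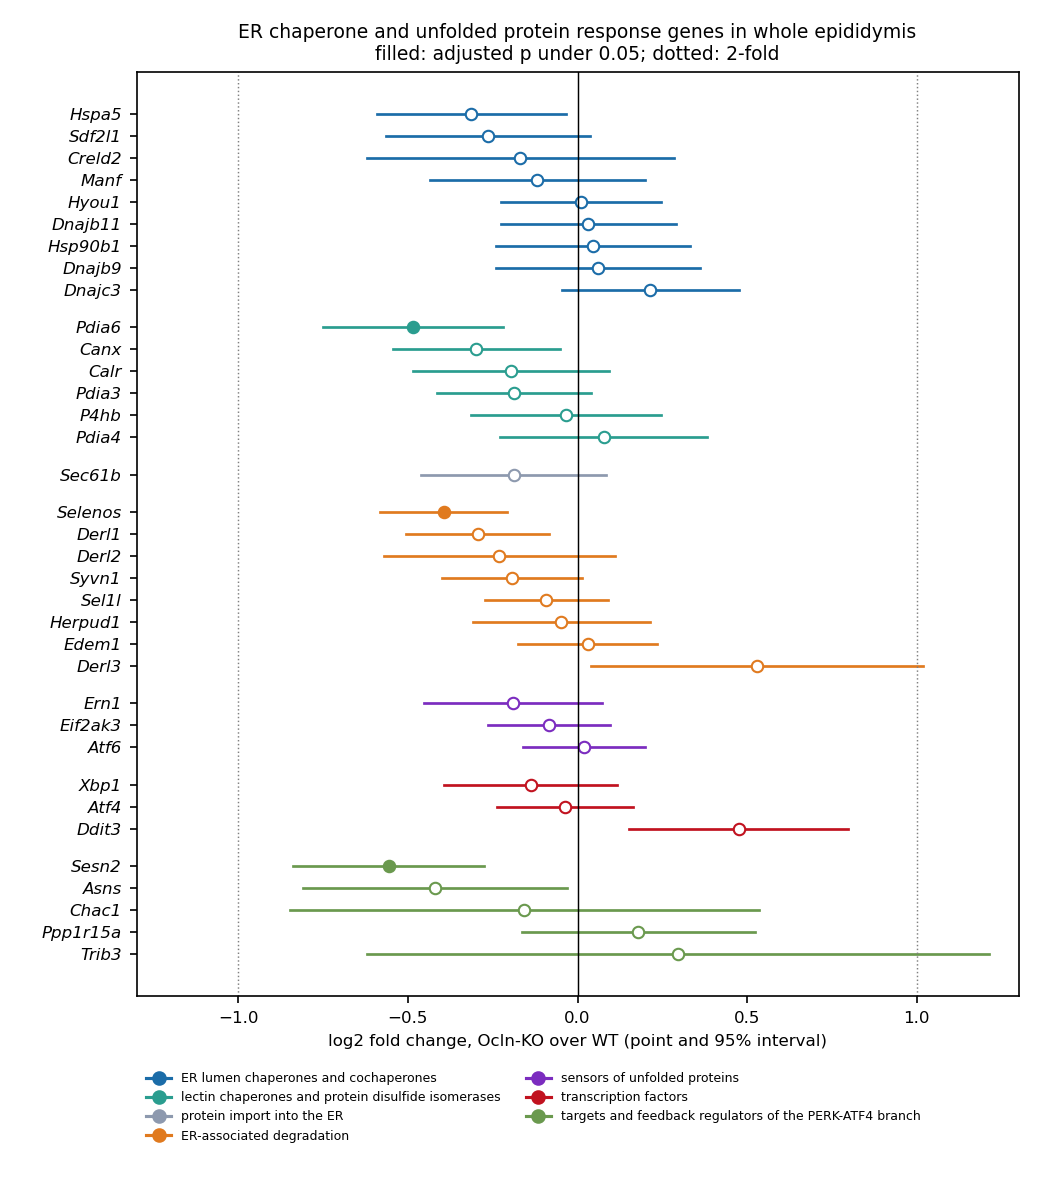
Log2 fold change (Ocln-KO minus WT, horizontal axis) of each of the 35 members, grouped by role, with the 95% interval of edgeR's quasi-likelihood fit as a horizontal bar. The 3 members with an adjusted p under 0.05 (Pdia6, Selenos and Sesn2) are marked and all lie left of 0, and most other intervals cross 0.

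None of the 9 chaperones of the ER lumen passed the test. Hspa5 encodes BiP, the Hsp70 chaperone that binds unfolded chains and holds the sensors inactive. Its level was 2653, 2477 and 2407 CPM in the libraries of WT against 1949, 2289 and 1832 CPM in those of Ocln-KO. All Ocln-KO libraries lay below all WT libraries, yet the log2 fold change of -0.31 ± 0.121 (SE) had an adjusted p of 0.135. Hsp90b1, the ER paralogue of Hsp90, had 1653, 1702 and 1485 CPM across the WT libraries and 1445, 1829 and 1724 CPM across those of Ocln-KO, with overlapping groups and a log2 fold change of 0.05 (95% interval -0.24 to 0.33). Hyou1, a nucleotide exchange factor for BiP, differed by 0.01 on the log2 scale, with an interval of -0.23 to 0.25.

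The J-domain partners, which stimulate the ATPase of BiP, also did not pass the test. Dnajb9 and Dnajb11 had log2 fold changes of 0.06 and 0.03. Dnajc3, which is in addition an inhibitor of PERK, had 388, 404 and 319 CPM in the WT libraries and 404, 438 and 448 in the Ocln-KO libraries. Its second WT and first Ocln-KO libraries differed by less than 1 CPM, and its log2 fold change of 0.22 had an adjusted p of 0.248. The 3 small lumenal factors of the set that ER stress induces stood lower by point estimate, with log2 fold changes of -0.26 for Sdf2l1, -0.12 for Manf and -0.17 for Creld2 and adjusted p-values of 0.222 to 0.613. For all 3 the first Ocln-KO library was the lowest of the 6. Creld2, for example, had 53.0 CPM there and 95.6 and 76.9 CPM in the other Ocln-KO libraries.

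Among the lectin chaperones and protein disulfide isomerases, Pdia6 fell and the other 5 members did not pass the test. Pdia6 isomerises disulfide bonds and is known to interact with IRE1. Its gene lies on chromosome 12 (GRCm38, 17266589 to 17284785), and its exons overlap an antisense gene, Atp6v1c2, by 50 bases. It had 979, 986 and 937 CPM in the libraries of WT against 661, 791 and 622 CPM in those of Ocln-KO, that is 967.5 ± 26.2 and 691.3 ± 88.2 CPM (SD, n = 3 each). The highest Ocln-KO library lay below the lowest WT library. The log2 fold change was -0.48 ± 0.115 (SE), with an adjusted p of 0.0424.

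The 2 lectin chaperones, which bind glycoproteins through their trimmed glycans, stood lower by point estimate. Canx, the membrane-bound form, had 2082, 1965 and 2063 CPM across the WT libraries and 1741, 1725 and 1500 CPM across those of Ocln-KO, without overlap. Its log2 fold change was -0.30, with an unadjusted p of 0.0232 and an adjusted p of 0.113. Calr, the soluble form, had 1671, 1704 and 1545 CPM in the WT libraries and 1285, 1654 and 1353 in the Ocln-KO libraries, where the second Ocln-KO library lay inside the WT range, and its log2 fold change of -0.20 had an adjusted p of 0.338. Pdia3, the isomerase that works with both lectins, had a log2 fold change of -0.19, also with an adjusted p of 0.248. Pdia4 and P4hb, the classical isomerase of the ER, had log2 fold changes of 0.08 and -0.03. P4hb was nearly the same in the WT libraries (727.7 to 731.2 CPM) and ranged from 608.5 to 816.6 CPM in the Ocln-KO libraries.

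**Figure D2:**
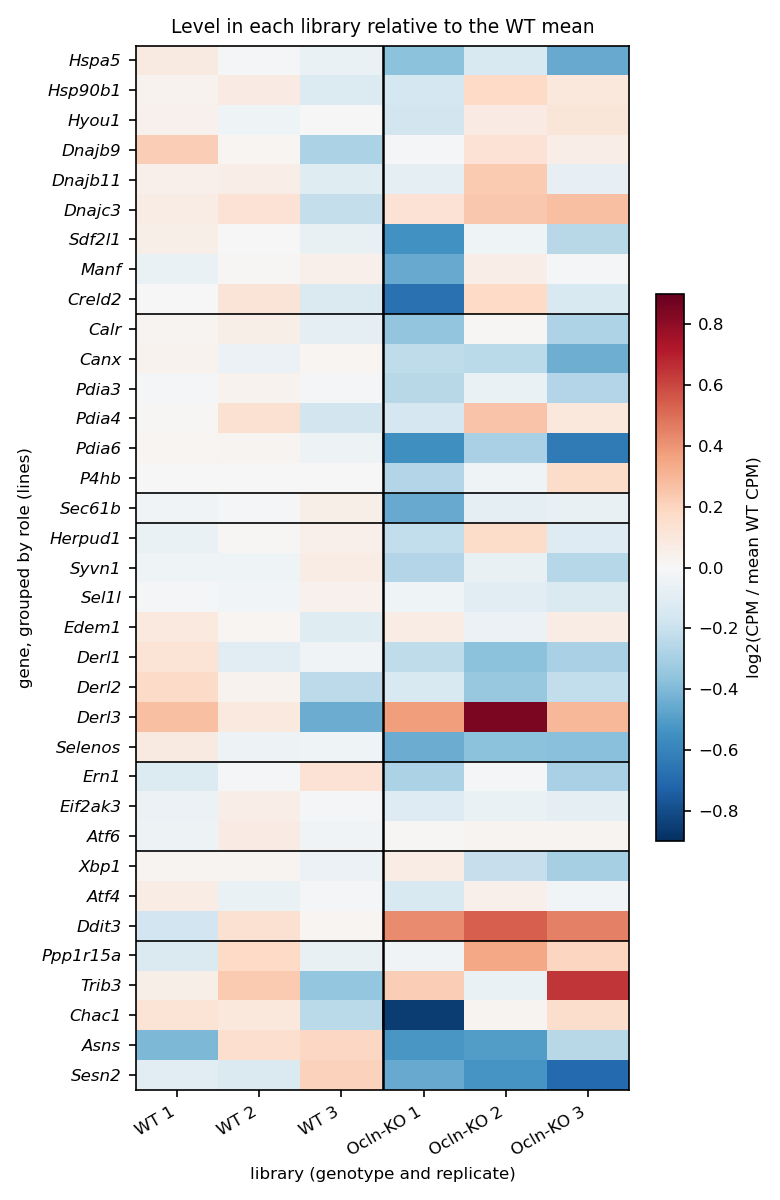
Level of each member in each of the 6 libraries as the log2 ratio to the mean of the 3 WT libraries (colour, blue lower and red higher), with members in rows grouped by role and libraries in columns. Of the 35 members, 22 are lowest within Ocln-KO in its first column, beside 33.1% of all genes tested. Pdia6, Selenos and Sesn2 are blue in all 3 Ocln-KO columns.

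Sec61b, a subunit of the channel through which proteins enter the ER, had 71.6 to 75.7 CPM in the libraries of WT against 53.4 to 69.96 CPM in those of Ocln-KO, with a log2 fold change of -0.19 and an adjusted p of 0.331. Of the 8 ERAD factors, Selenos fell and 7 did not pass the test. Selenos helps to recruit the p97 ATPase to the derlins in the ER membrane, and its gene lies on chromosome 7 (66079649 to 66089405). It had 103, 94.3 and 94.95 CPM across the WT libraries and 71.6, 75.6 and 75.2 CPM across those of Ocln-KO, or 97.4 ± 4.86 and 74.1 ± 2.21 CPM (SD, n = 3 each). The Ocln-KO libraries differed little among themselves and lay well below the WT libraries, and the log2 fold change was -0.39 ± 0.081 (SE) with an adjusted p of 0.0314.

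The 3 derlins, membrane proteins through which substrates leave the ER, had point estimates of both signs. Derl1 had 126, 109 and 113 CPM in the WT libraries and 98.98, 89.8 and 94.9 in the Ocln-KO libraries, without overlap, with a log2 fold change of -0.29, an unadjusted p of 0.0123 and an adjusted p of 0.0815. Derl2 was lower by 0.23 on the log2 scale, with an adjusted p of 0.341, and overlapped an antisense gene, Mis12, by 231 bases. Derl3, the stress-inducible derlin of secretory cells, had 28.2, 24.8 and 17.1 CPM in the libraries of WT against 30.3, 42.1 and 28.8 CPM in those of Ocln-KO. The groups were separated by less than 1 CPM, and the log2 fold change of 0.53 (95% interval 0.04 to 1.02) had an unadjusted p of 0.0375 and an adjusted p of 0.145.

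Markers of plasma and B cells, secretory immune cells that express Derl3, were higher as a sum in the Ocln-KO libraries. Over 15 genes they summed to 11.6, 10.2 and 9.36 CPM in WT and to 22.1, 17.03 and 31.1 CPM in Ocln-KO. Derl3 was highest in the second Ocln-KO library, where the sum was lowest within that genotype. Of the 15 genes, 6 could be tested and 2 (Jchain and Irf4) rose. Igkc, Ighm, Igha, Iglc1 and Iglc2 were listed at 0 in every library. Jchain, the joining chain of secreted antibody, rose from 1.496, 1.44 and 0.996 CPM to 6.42, 4.17 and 6.89 CPM, while Mzb1, an ER cochaperone of plasma cells, had 1.51 to 2.19 CPM in the WT libraries and 1.66 to 1.84 in the Ocln-KO libraries. The part of these cells in the level of Derl3 was not tested.

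The other ERAD members take part in substrate recognition and ubiquitination, and none passed the test. Syvn1, the ubiquitin ligase HRD1, and its partner Sel1l had log2 fold changes of -0.19 and -0.09, with adjusted p-values of 0.198 and 0.480. Herpud1, an assembly factor of this ligase complex, had 127, 134 and 137 CPM in the libraries of WT against 114, 148 and 122 CPM in those of Ocln-KO, and a log2 fold change of -0.05. Edem1, which marks misfolded glycoproteins for degradation by trimming their mannoses, had a log2 fold change of 0.03.

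None of the 3 sensors passed the test. Ern1 (IRE1) had 232, 248 and 276 CPM across the WT libraries and 207, 250 and 206 CPM across those of Ocln-KO, with a log2 fold change of -0.19 and an adjusted p of 0.309. Eif2ak3 (PERK) had 72.4, 78.3 and 74.8 CPM in the WT libraries and 69.5, 72.0 and 71.2 in the Ocln-KO libraries, with a log2 fold change of -0.08 and an adjusted p of 0.519. Atf6 had 133, 144 and 135 CPM in the libraries of WT against 138, 140 and 140 CPM in those of Ocln-KO, with a log2 fold change of 0.02 and an adjusted p of 0.894. For Eif2ak3 and Atf6 the 95% intervals were narrow, -0.26 to 0.10 and -0.16 to 0.20 on the log2 scale, while that of Ern1 ran from -0.45 to 0.07.

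The transcription factors of the response did not pass the test either. Xbp1, whose spliced mRNA encodes the active factor, had 222, 221 and 210 CPM across the WT libraries and 228, 189 and 177 CPM across those of Ocln-KO. Its first Ocln-KO library was the highest of the 6 and the other 2 Ocln-KO libraries the lowest, and the log2 fold change of -0.14 had an adjusted p of 0.451. Atf4 had 131, 120 and 123 CPM in the WT libraries and 113, 128 and 122 in the Ocln-KO libraries, with a log2 fold change of -0.04. Ddit3, which encodes CHOP, had 8.57, 10.6 and 9.77 CPM in the libraries of WT against 12.96, 14.1 and 13.3 CPM in those of Ocln-KO. It had the lowest p among the members with a higher point estimate. All Ocln-KO libraries lay above all WT libraries, and the log2 fold change was 0.47 ± 0.140 (SE), with an unadjusted p of 0.00961 and an adjusted p of 0.0725. DESeq2 gave an adjusted p of 0.0303 for Ddit3, and scaling by total counts alone in edgeR gave 0.0484, the only 2 of 14 alternatives under 0.05. Over all 14 the adjusted p reached 0.210, and it stayed over 0.05 with each of the 6 libraries left out. The exons of Ddit3 overlap a further gene model of the same symbol by 105 bases and antisense genes, Mars among them, by 81 bases. Overlaps with antisense genes also occur in Eif2ak3 (485 bases), Hsp90b1 (415, and 217 with genes on its own strand), Manf (312) and Syvn1 (91), and without a stated strand setting such reads cannot be told apart.

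Of the 5 targets and feedback regulators of the PERK-ATF4 branch, Sesn2 fell and 4 did not pass the test. Sesn2 lies on chromosome 4 (132492804 to 132510456). It had 46.0, 45.2 and 57.2 CPM across the WT libraries and 36.2, 34.3 and 30.4 CPM across those of Ocln-KO, or 49.5 ± 6.67 and 33.6 ± 2.95 CPM (SD, n = 3 each). The groups did not overlap, and the log2 fold change was -0.56 ± 0.122 (SE) with an adjusted p of 0.0359. Asns, the asparagine synthetase induced by ATF4, had 27.3, 40.1 and 41.2 CPM in the WT libraries and 25.2, 25.6 and 30.4 in the Ocln-KO libraries, so that its first WT library lay inside the Ocln-KO range, and its log2 fold change of -0.42 had an unadjusted p of 0.0377 and an adjusted p of 0.146.

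The remaining targets did not pass the test. Ppp1r15a (GADD34), which directs the dephosphorylation of eIF2α, had 13.4 to 16.6 CPM in the libraries of WT against 14.4 to 18.6 CPM in those of Ocln-KO, with a log2 fold change of 0.18 and an adjusted p of 0.468. Chac1, a glutathione-degrading enzyme, had 4.73, 4.63 and 3.66 CPM across the WT libraries and 2.40, 4.42 and 4.85 CPM across those of Ocln-KO, with the lowest value in the first Ocln-KO library and a log2 fold change of -0.16. Trib3, a pseudokinase that inhibits ATF4 and CHOP, had 21 to 38 counts per library, and its interval of -0.62 to 1.21 on the log2 scale does not bound a change of either sign below 1.5-fold.

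The calls of Pdia6, Selenos and Sesn2 were each lost when any of 5 of the 6 libraries was left out. Pdia6 kept an adjusted p under 0.05 only when the second Ocln-KO library was left out (0.0457), Selenos only without the third Ocln-KO library (0.0387) and Sesn2 only without the first Ocln-KO library (0.0452). Over the other libraries left out in turn, the adjusted p by edgeR was 0.0650 to 0.142 for Pdia6, 0.0570 to 0.125 for Selenos and 0.0557 to 0.109 for Sesn2. The calls over all genes, 1762 with every library, numbered 23, 230 and 56 without WT library 1, 2 and 3 in turn. Without Ocln-KO library 1, 2 and 3 in turn they numbered 1657, 562 and 1692. With libraries scaled by total counts alone, the adjusted p-values of Pdia6, Selenos and Sesn2 were 0.0599, 0.0525 and 0.0545. With the replicate number as a block they were 0.103, 0.105 and 0.111, and 41 genes in all were called. In all of these fits the 3 genes stayed lower in Ocln-KO.

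The Ocln-KO libraries differed among themselves in their chaperone levels. Of the 35 members, 22 were lowest in the first, 4 in the second and 9 in the third of the 3 Ocln-KO libraries. Of all genes tested, 33.1%, 29.9% and 37.1% were lowest there. The median log2 ratio of the members to the WT mean was -0.22 in the first, -0.04 in the second and -0.08 in the third Ocln-KO library. Members took 1.26%, 1.41% and 1.29% of all counts in these libraries and 1.41%, 1.41% and 1.36% in the WT libraries. The 9 lumenal chaperones stood at a median of -0.16 in the first Ocln-KO library and 0.13 in the second, with 8 of them below the WT mean in the first and 2 in the second.

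Markers of principal cells varied across the same libraries. Those of the initial segment and caput, 16 genes, summed to 11160, 11450 and 8129 CPM in the WT libraries and to 6019, 19710 and 22170 in the Ocln-KO libraries, the lowest sum being in the first Ocln-KO library. Gpx5, a secreted glutathione peroxidase, made up much of the high sums, with 54.4, 171.7 and 26.3 CPM in the 3 WT libraries and 256, 7258 and 10030 in the Ocln-KO ones. Without Gpx5, named after its values were seen, the sums were 11100, 11280 and 8103 CPM for WT and 5763, 12450 and 12140 for Ocln-KO. The 12 genes listed for the corpus and cauda summed to 24980, 21350 and 21710 CPM in WT and to 15200, 18800 and 11100 CPM in Ocln-KO. Crisp1 (16750, 12480 and 15400 CPM in WT, 9948, 9152 and 4436 in Ocln-KO) and Adam7 (7844, 8509 and 5999 in WT, 5067, 9296 and 6400 in Ocln-KO) made up most of these sums. Neither passed the test. Crisp1 was lowest in the third Ocln-KO library and Adam7 in the first. Regions are those of the lists, and whole-organ RNA cannot show where a gene was expressed. Of the 11 genes of the corpus and cauda list tested, Gpx6 rose and Defb48 fell. Of 9 clear cell markers tested 5 fell, beside 5.04% of all genes. Those that rose were 3 of 10 caput markers tested, 2 of 8 for smooth muscle, 1 of 8 for basal cells and 1 of 10 for general epithelium, beside 3.91% of all genes. The part of these shifts in the members' levels was not tested.

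Compared per length, the set fell into an abundant and a less abundant group. With CPM divided by the merged exon length in kilobases (GENCODE M21), 8 members stood at 237 to 594 CPM per kb in WT, in the order Hspa5, Calr, Canx, Hsp90b1, Pdia3, Pdia6, P4hb and Pdia4. The next, Manf, was at 72.9 CPM per kb. Hspa5, at 594, was exceeded by 48 of 17162 genes with a length. The WT libraries of Hspa5 (569 to 627) and Calr (536 to 592) overlapped, as did those of Pdia6, P4hb and Pdia4. Canx at 419 to 444 and Hsp90b1 at 368 to 422 overlapped as well, whereas the gaps between Calr and Canx, between Hsp90b1 and Pdia3 and between Pdia3 and Pdia6 exceeded the spread of the WT libraries.

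Below these stood 16 members between 25.3 and 72.9 CPM per kb, among them Xbp1 at 67.0, Selenos at 66.0, Atf4 at 52.8 and Ern1 at 30.8. The other sensors were lower, with 14.9 for Atf6 and 12.5 for Eif2ak3. Ddit3, Ppp1r15a, Chac1, Derl2 and Trib3 were the least abundant, at 5.64, 4.99, 2.65, 1.85 and 0.339 CPM per kb. In Ocln-KO the level of Pdia6 was 185 CPM per kb, below those of P4hb at 249 and Pdia4 at 250, although in WT it stood level with both. How reads that align to several places were counted is not stated, and levels between genes carry that limit.

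**Figure D3:**
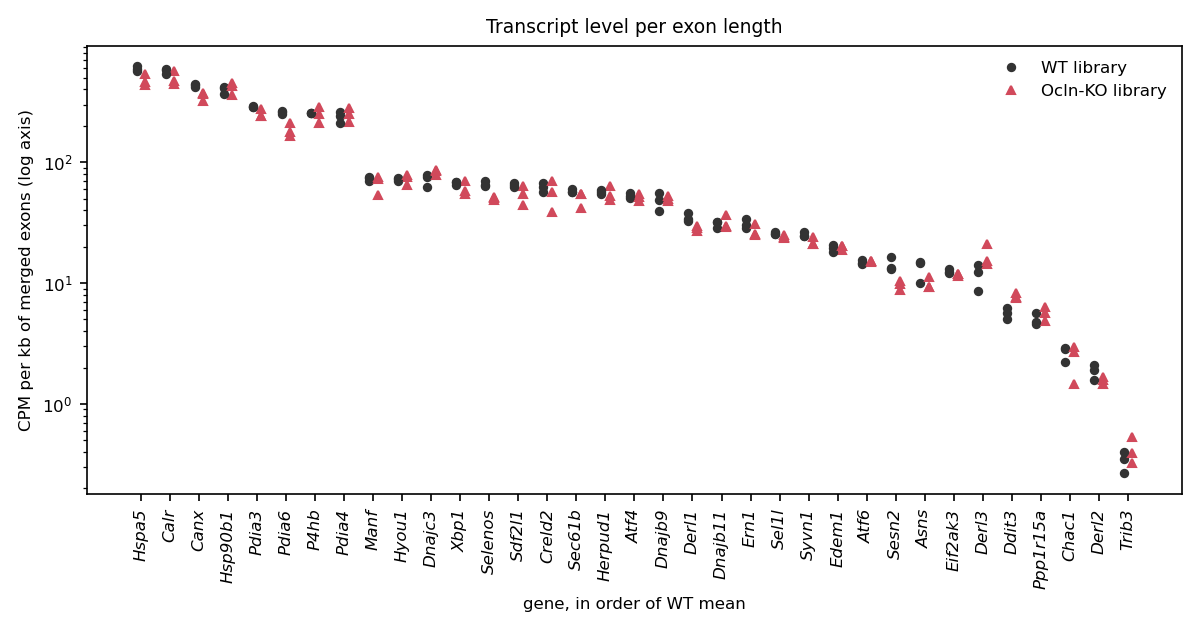
Level of each member in CPM per kilobase of merged exons on a log axis, with 1 point for each WT and each Ocln-KO library and members ordered by their WT mean. The 8 most abundant members, from Hspa5 to Pdia4, stand apart from the rest, and Trib3 is the lowest.

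The presence of an ER stress element did not go with a common direction. The 9 members that hold it had log2 fold changes from -0.48 (Pdia6) to 0.53 (Derl3), with a median of -0.19, 6 lower and 3 higher by point estimate, and 1 of them fell. The 22 members with a promoter entry and no such element had a median of -0.09, 15 lower and 7 higher, and 2 of them fell. No test was made of this difference.

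**Figure D4:**
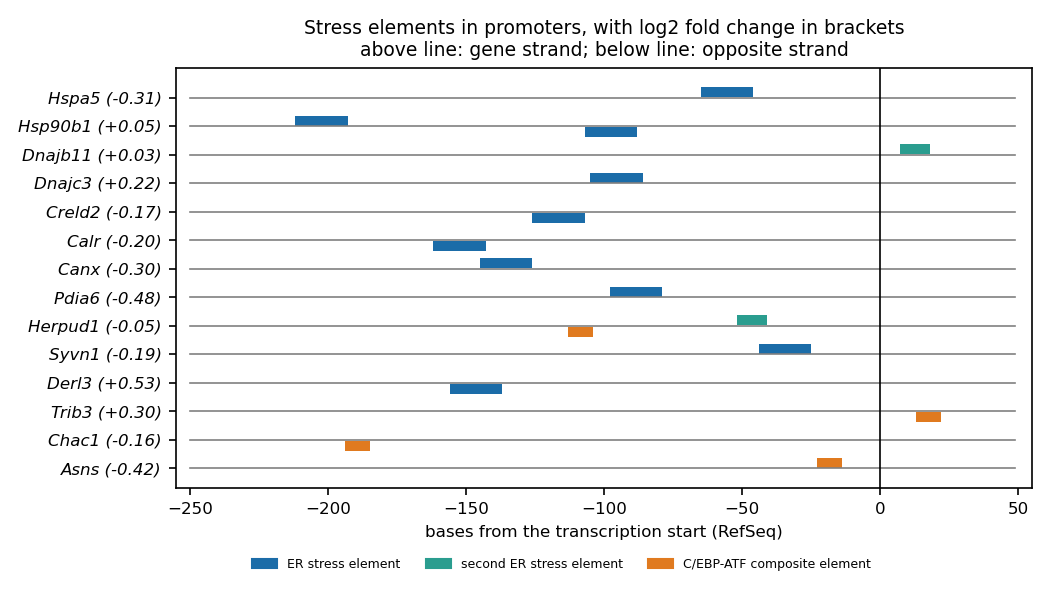
Position of each element found in the promoters of the members, in bases relative to the start site (horizontal axis, 0 is the start), with marks above each line for the strand of the gene and below it for the opposite strand. Elements of the ER stress type lie between 212 bases before and 17 bases after the start, in Hspa5, Hsp90b1, Pdia6 and 8 further members.

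Other genes of the pathway, in 7 lists of 166 genes of which 159 could be tested, gave 4 genes that rose and 9 that fell. These are 2.52% and 5.66% of the genes tested, close to the 3.91% and 5.04% of all genes. Their median log2 fold change was -0.10, and 59 of them (37.1%, beside 19.4% of all genes) had all Ocln-KO libraries below all WT libraries, against 18 (11.3%, beside 16.9%) above.

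The replicate block, a fit with the replicate number as a term, ended all 13 of these calls. With single libraries left out in turn, Srprb, Sec61a2, Slc7a11 and Sar1b lost the call each time, and the other 9 kept it in 1 to 3 of 6 fits.

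In protein import and N-glycosylation, 3 of 30 genes fell (10%, beside 5.04% of all genes) and none rose, with a median of -0.17. These were Stt3b, a catalytic subunit of the oligosaccharyltransferase (from 546, 554 and 607 CPM to 418, 394 and 403 CPM, log2 fold change -0.49, adjusted p 0.0238), Spcs1, a subunit of the signal peptidase (-0.44, adjusted p 0.0314), and Srprb, a subunit of the receptor for the signal recognition particle (-0.39, adjusted p 0.0390). Summed over this list, levels were 7510 to 7800 CPM across the WT libraries and 6460 to 7000 CPM across those of Ocln-KO. In the COPII coat and ER exit list 3 of 18 fell (16.7%, beside 5.04%), with a median of -0.19. They were Mcfd2, a cargo receptor subunit (-0.47, adjusted p 0.0228), Sar1b, the GTPase that starts coat assembly (-0.49, adjusted p 0.0392), and Tmed9, a p24 cargo receptor (-0.42, adjusted p 0.0470). Neither list held a gene that fell when any 1 WT library or the second Ocln-KO library was left out, while the medians of both lists stayed below 0 with any 1 library left out. All Ocln-KO libraries lay below all WT libraries in 56.7% of the import genes and 55.6% of the COPII genes, beside 19.4% of all genes. They lay above in 6.67% and 11.1%, beside 16.9%. The lists were not tested against each other or against all genes.

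Few folding and degradation factors outside the 35 members passed the threshold, while most stood lower by point estimate. Of the 26 other folding factors 19 were lower, with a median log2 fold change of -0.14. In 42.3% of them (beside 19.4% of all genes) all Ocln-KO libraries lay below all WT libraries, and in 11.5% (beside 16.9%) above. For the other ERAD factors tested the median was -0.06, with 34.8% below and 8.7% above. Of the folding factors 1 rose (3.85%, beside 3.91% of all genes) and none fell. Ero1b, an oxidase that recharges the protein disulfide isomerases, rose from 46.7, 41.4 and 36.8 CPM to 54.5, 61.2 and 73.7 CPM (log2 fold change 0.60, adjusted p 0.0396). Of 23 other ERAD factors tested 1 fell and 1 rose (4.35% each, beside 5.04% and 3.91% of all genes). Rhbdd1, a rhomboid protease, fell from 34.9 to 35.8 CPM in WT to 19.1 to 25.5 CPM in Ocln-KO (-0.61, adjusted p 0.0295). Sec61a2 rose (0.39, adjusted p 0.0403). It encodes a second form of the channel subunit Sec61 alpha and was placed in this list, not in that of protein import. Rnf5 was listed at 0 in every library. Of 14 cytosolic heat shock proteins tested, which serve outside the ER, 1 fell (7.14%, beside 5.04% of all genes) and none rose. The gene that fell was Cryab (-0.97, adjusted p 0.0233).

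Genes downstream of the sensors were called about as often as all genes. Of 26 targets of ATF4 and the integrated stress response, 1 rose and 1 fell (3.85% each, beside 3.91% and 5.04% of all genes). Atf3, a stress-induced transcription factor, rose from 1.42, 1.64 and 2.10 CPM to 4.24, 4.08 and 4.08 CPM, with a log2 fold change of 1.26 and an adjusted p of 0.0290. Slc7a11, the cystine importer, fell from 623, 518 and 359 CPM to 317, 296 and 254 CPM, with a log2 fold change of -0.79 and an adjusted p of 0.0465. The median of this list was -0.09. In 26.9% of it (beside 19.4% of all genes) all Ocln-KO libraries lay below all WT libraries, and in 11.5% (beside 16.9%) above. At an unadjusted p under 0.05 by edgeR, 7 of these targets were lower and 2 higher. Of 22 other sensors, regulators and effectors of ER stress tested, 1 rose (4.55%, beside 3.91%) and none fell. Casp12, a caspase associated with the ER, rose from 7.21, 8.32 and 6.46 CPM to 14.02, 10.9 and 13.2 CPM (0.79, adjusted p 0.0343). The list median was 0.06, and in 13.6% of the list all Ocln-KO libraries lay below all WT libraries, in 22.7% above. Markers of macrophages and of T cells, cells that can express Atf3 and Casp12 too, had none of 12 and none of 5 genes tested past the threshold by edgeR. At an unadjusted p under 0.05, 8 macrophage markers were higher and 1 (Cd163) lower, and 3 T cell markers were higher. They summed to 229 to 272 and 2.54 to 3.52 CPM in the WT libraries and to 277 to 498 and 5.11 to 7.98 in the Ocln-KO libraries (Trac and Trbc2 at 0 in every library), and their part in these levels was not tested.

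**Figure D5:**
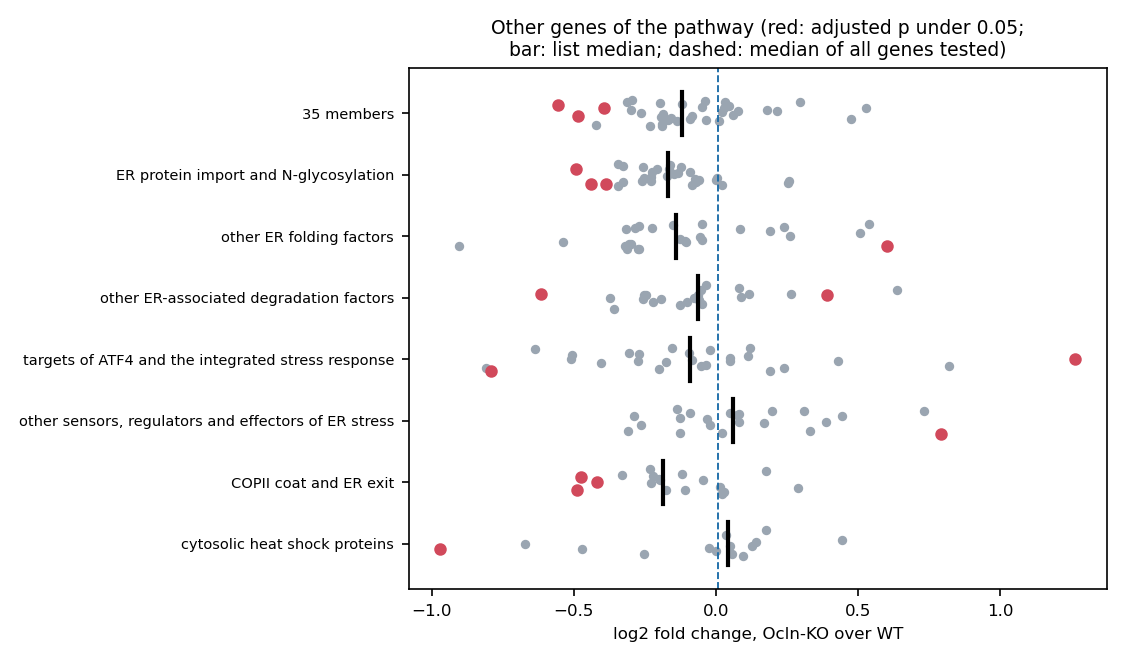
Log2 fold change (Ocln-KO minus WT, horizontal axis) of each of the 35 members (top line) and each tested gene in the 7 lists of other pathway genes, with 1 point per gene, red where the adjusted p was under 0.05, a bar at each list's median and a dashed line at the median of all genes tested. The medians of the import and COPII lists lie furthest left of the dashed line, at -0.17 and -0.19, followed by that of the other folding factors at -0.14.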

How the data were processed

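Counts of 6 libraries, 3 WT and 3 Ocln-KO, were analysed. As the study's methods and processing notes state, ribosomal RNA was removed from RNA with a RIN over 6 and strand-specific libraries were read as paired ends in 1 lane, with alignment to GRCm38 by HISAT2 2.0.4 and counting by HTSeq; the strand setting is not given in the sources used here. The deposited values are the authors' raw counts per gene, without normalization. All 6 columns matched a sample by name. A spreadsheet had converted 27 symbols to dates (0.14% of counts), and 2 symbols occurred more than once.

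In R 4.3.3, genes were kept by filterByExpr, scaled by TMM factors and compared with edgeR 4.0.16 (glmQLFit, glmQLFTest, two-sided, Benjamini-Hochberg over all 19691 genes tested, threshold 0.05). Standard errors are the log2 fold change over the square root of F. Rose and fell are used for genes past that threshold. DESeq2 1.42.0, limma-voom (limma 3.58.1), other scalings and filters, glmTreat, a replicate block and each library left out were the alternatives. The fit was tested on simulated data. Members and lists were chosen with earlier results of these data known. All 35 members are named, with library values for those past the threshold, the sensors, transcription factors, Hspa5, Hsp90b1 and Calr; other library values were added after they were seen. Of each other list, up to 3 genes past the threshold are named.

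Gene coordinates and promoter sequences come from RefSeq, and merged exon lengths and exon overlaps from GENCODE M21, both on GRCm38.p6.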

Additional observations from a re-analysis of the deposited data

How the results depend on the processing

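Member genes that rose (0) numbered 1 with DESeq2 and 1 with total counts only. Those that fell (3) numbered 0 with total counts only, under a replicate block, with glmTreat at 2-fold and with the added fold threshold, and 0 to 1 when 1 library was left out. Other pathway genes that rose (4) numbered 7 with DESeq2, 7 with total counts only, 0 under the block, 0 with glmTreat, 1 with the fold threshold and 0 to 4 with a library left out. Those that fell (9) numbered 20, 5, 0, 0, 0 and 0 to 10 in the same order, and 14 without a count filter. At an unadjusted p under 0.05, 5 members were lower and 2 higher under the block, and with glmTreat there were 0. The study's methods speak of pairs of mice, and neither what a pair shares nor whether the replicate numbers mark it is stated. The comparison was made without pairing, because the study's methods state no replicate block. Deviations of same-numbered libraries correlated at -0.06 to -0.018, and no library correlated best with its own number. With 3 libraries per genotype, these correlations cannot show whether the mice were paired. The block lowered the calls over all genes from 1762 to 41. The members' median log2 fold change was -0.0366 with total counts only and -0.1645 to 0.0154 with a library left out. With total counts only, P4hb (0.0497), Herpud1 (0.0345) and Atf4 (0.0469) changed sign. With a library left out, signs changed for 13 members near 0, which ranged from -0.0248 to 0.14 (Hsp90b1), -0.0404 to 0.095 (Hyou1), -0.0593 to 0.185 (Dnajb9), -0.0787 to 0.0943 (Dnajb11), -0.21 to 0.0293 (Manf), -0.38 to 0.0356 (Creld2), -0.0217 to 0.18 (Pdia4), -0.14 to 0.0727 (P4hb), -0.16 to 0.0379 (Herpud1), -0.0204 to 0.074 (Edem1), -0.0029 to 0.0549 (Atf6), -0.0777 to 0.016 (Atf4) and -0.34 to 0.10 (Chac1). Every fit with 1 library left out has the same lower number of samples, yet its calls over all genes ranged from 23 to 1692. What moved the signs and calls was not tested. Under the other settings 300 of the members' values kept their direction and their side of the threshold. Depth was lowest for Trib3, at 21 to 38 counts per library.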
